A study of Mus musculus with 15 samples.

Results

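Distal intergenic peaks are stretches of open chromatin that lie outside genes and away from their promoters. Those described here are tied by the deposited annotation to a gene with a proper name. From each of 4 tables of accessible regions, the peaks annotated as distal intergenic were kept unless the assigned gene was a predicted gene (Gm with a number), a microRNA gene (Mir with a number) or a cDNA clone (name ending in Rik). The rule used position and gene name and no measured value. It kept 739 of 7826 peaks in the comparison of genotypes before pancreatectomy, 1668 of 13111 in the comparison of genotypes after it, 839 of 8070 in the comparison of pancreatectomy in controls and 1579 of 12767 in that of pancreatectomy in the Arid1a knockout group. These are 4825 of 41774 listed peaks. Because the tables repeat the same places, overlapping entries were joined, which left 1802 separate regions.

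Distal open chromatin is where most enhancers lie. An enhancer binds transcription factors and acts on a promoter that can be far away on the DNA, so the gene nearest to a distal peak is a label of convenience and need not be its target. Arid1a encodes the DNA-binding subunit of the BAF form of SWI/SNF, a complex that slides and evicts nucleosomes and is known in many tissues for its work at enhancers. In pancreatic islets, distal elements carry the binding sites of the endocrine transcription factors and the signal-dependent factors that set beta cell identity and proliferation.

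Open chromatin was read out with ATAC-seq (a transposase inserts sequencing adapters wherever DNA is accessible), with 1 library for each of 15 male mice aged 3 months and 40000 islet cells per library. Every mouse, controls included, was homozygous for the floxed allele (Arid1aFl/Fl), carried MIP-rtTA, a doxycycline-dependent activator under the mouse insulin promoter, and was given doxycycline at 1 g/L for 2 weeks. The knockout group also carried TRE-Cre, so that recombination was confined by design to cells that use the insulin promoter, while the islets measured also hold other endocrine, vascular and immune cells. Partial pancreatectomy (PPx), which makes the remaining beta cells divide, was done 1 week after doxycycline was withdrawn, and islets were taken 6 days later. The groups were 4 controls and 3 knockouts before PPx, and 4 controls and 4 knockouts after it. In bulk islets, fewer cells of a type and less open chromatin per cell cannot be told apart.

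Values per library were not given in the tables, so each peak has 1 mean per group. That mean, the concentration, is in log2 normalised reads over a peak of fixed width. Members were weak: the median mean concentration of a member was 3.79, 3.5, 3.69 and 3.43 in the 4 tables in the order above, or 13.8, 11.3, 12.9 and 10.8 normalised reads, against 4.02, 3.80, 3.93 and 3.78 for all listed peaks. The sequencing depth behind these values is unknown. The groups are called KO-labelled because the files hold only an indirect check of the label. A single peak was listed in Arid1a, in exon 9 of 20, and which exon is floxed is unstated in the labels, so whether it lies in the deleted part is unknown. In the authors' deposited tables it was at 1.21 in controls and 5.49 in KO-labelled islets before PPx (FDR 0.00187), and at 0.40 and 4.04 after it (FDR 0.00201). The Arid1a peak was called in no control. Before PPx all 3 KO-labelled mice had the call, but after PPx only 3 out of 4 did. Which mouse lacked the call is not given, and the reason was not tested. From before to after PPx, the KO-labelled mean of this peak went from 5.26 to 4.04 (deposited log2 fold -1.22, FDR 0.0584). Each table was scaled on its own, so concentrations are compared within a table. The implied SE quoted here is the size of a log2 fold divided by the normal quantile of its deposited p-value, and its median over members was 0.47, 0.43, 0.40 and 0.54 log2 units.

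The annotation was checked against transcription start sites of RefSeq (GRCm38.p6, the same assembly as mm10), in a table that is not complete. Of the members with a distance, 88 of 714, 135 of 1613, 88 of 810 and 135 of 1530 lay within 1 kb of some RefSeq start, so a part of the class sits near starts that the deposited annotation did not use. The median distance to the nearest start was 26.8, 28.0, 28.3 and 26.7 kb. Where the assigned gene itself had a start in the table, its median distance was 39.4, 44.1, 44.4 and 42.5 kb, and it was the nearest gene for only 271 of 541, 594 of 1220, 300 of 616 and 555 of 1159 members. RefSeq gene bodies overlapped 33.7%, 26.4%, 29.8% and 27.9% of the members, and for 127, 257, 129 and 252 of these members each gene hit was a predicted, LOC or Rik gene. A gene name below therefore says where a peak was filed, not which gene it serves.

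The start windows of 4 genes that lie whole inside called members are shown, as the sequence of distal members that sit at a start. Each is the 250 bases before a RefSeq start, 5′ to 3′ along the strand of that gene (GRCm38.p6). Capitals mark exact matches, on either strand, to the motif of NFY (CCAATCA) or ETS factors (CCGGAAG); the SP1 motif (GGGGCGGGG) was also searched. The window of Zfp775 (chr6:48601757-48602006, plus strand) lies in the peak filed under Repin1. That of Hdac4 (chr1:92180342-92180591, minus strand) lies in the peak filed under Hdac4. Those of Zfp825 (chr13:74493962-74494211, minus strand) and of Gatad2b (chr3:90292931-90293180, plus strand) lie in the peaks filed under Zfp825 and Dennd4b.
Zfp775: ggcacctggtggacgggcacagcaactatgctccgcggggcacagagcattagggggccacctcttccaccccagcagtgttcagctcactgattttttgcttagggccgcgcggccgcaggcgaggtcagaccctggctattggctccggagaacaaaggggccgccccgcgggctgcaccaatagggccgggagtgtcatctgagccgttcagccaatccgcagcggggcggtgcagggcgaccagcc
Hdac4: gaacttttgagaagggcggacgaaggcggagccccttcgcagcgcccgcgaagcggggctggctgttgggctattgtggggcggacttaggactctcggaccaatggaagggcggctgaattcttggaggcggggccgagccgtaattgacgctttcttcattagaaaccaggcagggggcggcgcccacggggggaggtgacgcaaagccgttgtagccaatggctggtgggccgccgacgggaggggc
Zfp825: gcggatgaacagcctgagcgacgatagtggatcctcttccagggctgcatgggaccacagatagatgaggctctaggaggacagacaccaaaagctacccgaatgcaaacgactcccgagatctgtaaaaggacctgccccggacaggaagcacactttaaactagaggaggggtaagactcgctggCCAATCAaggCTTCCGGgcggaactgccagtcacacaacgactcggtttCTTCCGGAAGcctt
Gatad2b: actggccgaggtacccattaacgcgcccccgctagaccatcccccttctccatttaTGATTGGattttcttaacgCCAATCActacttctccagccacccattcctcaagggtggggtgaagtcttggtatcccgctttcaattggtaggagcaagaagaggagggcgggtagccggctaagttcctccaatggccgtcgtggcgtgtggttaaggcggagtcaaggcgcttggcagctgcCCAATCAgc
The windows of Zfp775 and Hdac4 hold 18 and 23 CpG dinucleotides and none of the 3 marked motifs. The window of Zfp825 holds 1 NFY match and 3 ETS matches, and that of Gatad2b holds 3 NFY matches.

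Over the 4 tables, 82 such windows lie whole inside a member. Their median GC content was 53.2%, against 61.6% for 4992 windows inside listed promoter peaks and 52.4% for all 32817 RefSeq windows, and their median CpG count was 9, against 18 and 6. The NFY motif was in 26 of the 82 member windows (31.7%), in 15.1% of the windows in promoter peaks and in 7.22% of all windows. The SP1 motif was in 13.4%, 22% and 10.4% in the same order, and the ETS motif in 9.76%, 16.5% and 6.90%. A motif of CTCF, the insulator protein, was in 11.0%, 10.6% and 6.31%. Among motifs of factors used in islets, the NEUROD E-box CAGATG was in 12 member windows (14.6%, against 8.19% in promoter peaks and 14.5% of all windows). The forkhead motif TGTTTAC was in 5 (6.1%, against 1.88% and 3.16%), the MAF motif TGCTGAC also in 5 (6.1%, against 2.7% and 3.81%) and an RFX motif in 2 (2.44%, against 0.341% and 0.466%). The homeobox motif TAATTA was in 1 (1.22%, against 1.72% and 4.85%) and an HNF1 motif in 0 (against 0.02% and 0.0609%). The AP-1 motif TGANTCA was in 5 (6.1%, against 3.06% and 6.75%) and the GATA motif AGATAAG in 2 (2.44%, against 1.2% and 2.74%). All letters were searched on both strands of the 250 bases, and a match is a description of the sequence only.

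Most member regions were filed in several tables, which share libraries in pairs. Of the 1802 regions, 613 were listed in all 4 tables, 205 in 3, 774 in 2 and 210 in 1. The most frequent pattern was listing in just the genotype table after PPx and the PPx table of KO-labelled islets, which share the 4 KO-labelled libraries after PPx, with 684 regions. Most genes had 1 member: 1073 of 1324 genes after PPx. Sugct and Dusp26, a dual-specificity phosphatase gene, had the most in that table, with 5 each and log2 folds from -0.02 to 0.63 and from 0.08 to 0.70, and 0 of these 10 peaks were called. The 6 regions of highest concentration among those in all 4 tables belonged to Pak3, Ly6c2, Dpy19l2, Zfp317, Zfp78 and Vmn1r-ps151. The Pak3 region on the X chromosome (chrX:143482757-143483357, 35534 bp from the Pak3 start, a gene for a p21-activated kinase) was far above the others, with group means between 11.70 and 12.06 and log2 folds of 0.19, 0.04, 0.20 and 0.05 in the authors' deposited tables. Peaks of Zfp317 lay 73 to 125 bp from the RefSeq start of that zinc finger gene, with log2 folds of 0.18, 0.77, 0.12 and 0.67 in the authors' deposited tables.

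Before PPx, no member passed the threshold between genotypes. Of the 739, 0 were gained and 0 lost at a deposited FDR of 0.05, where over all listed peaks 0.0128% were gained and 0.0% lost. At an unadjusted p under 0.05, 8 members were higher and 35 lower in KO-labelled islets (over all listed peaks 0.843% and 2.3%), and a Benjamini-Hochberg adjustment over all listed peaks called 0. Peaks were detected in every library for 130 members (17.6%, against 26.9% of all), in no control and all KO-labelled libraries for 5 (0.677% against 0.767%), and in all control and no KO-labelled libraries for 1 (0.135% against 0.141%). The median log2 fold, KO-labelled minus control, was -0.12 (middle 50% from -0.44 to 0.19), against 0.00 for all listed peaks, 0.04 for promoter peaks and -0.21 for intron peaks. A share of 37.3% of members was above 0, against 48.9% of all peaks. The 613 members listed in all 4 tables had a median of -0.16 (33.6% above 0), and the 126 others had 0.115 (55.6% above 0). Among members at or above the median concentration of the table, Fam107a was lowest. In the authors' deposited table its peak had means of 4.73 in controls and 3.03 in KO-labelled islets, a difference of -1.70 in log2 (FDR 1, implied SE 0.52), and a peak was detected in 4 of 4 and 3 of 3 libraries. Etv1, which encodes an ETS factor downstream of MAPK signalling, was among the highest. One of its peaks had means of 5.35 and 6.20 in the authors' deposited table, 0.85 on the log2 scale (FDR 1, implied SE 0.31). Isl1, a LIM-homeobox factor of endocrine cells, had a weaker peak with means of 2.69 and 3.81 in the authors' deposited table and a log2 fold of 1.12 at an FDR of 1.

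After PPx, the deposited concentrations of members were on average higher in KO-labelled islets, but this direction rests on the scaling: centred on all listed peaks, the median log2 fold of members was -0.19. The sources used here do not say how libraries were scaled, so a shift of all folds by scaling and one by accessibility cannot be told apart. As deposited, the median log2 fold was 0.42 (middle 50% from 0.12 to 0.69) and 82.1% of members were above 0, against 0.61 and 90.3% for all listed peaks, 0.71 and 96.9% for promoter peaks, and 0.37 and 78.1% for intron peaks. By the authors' FDR, 61 of 1668 members were gained (3.66%) and 1 was lost, where over all listed peaks 9.89% were gained and 0.0839% lost. Members also had lower concentrations than promoter peaks. Under 3.5, median log2 folds were 0.39 in members, 0.59 in promoter peaks and 0.34 in intron peaks, with 0 gained in each. The FDR of exactly 1 described below covers this range, so the 0 says nothing about the classes. From 3.5 to 4.5 the medians were 0.42, 0.67 and 0.38, and 4.81%, 12.5% and 3.17% were gained. From 4.5 up they were 0.58, 0.77 and 0.47, and 15.4%, 26.6% and 9.49% were gained. The difference between classes and the part of concentration in it were not tested. Members at an FDR of exactly 1, which the deposited table gives to peaks of concentration up to 3.5, were 831 (49.8%, against 34.6% of all peaks), and these could not be called. At an unadjusted p under 0.05, 237 members were higher and 14 lower (over all listed peaks 33.0% and 0.526%), and the adjustment over all listed peaks called 22 gained and 1 lost (over all listed peaks 4.13% and 0.0763%). The member lost by this adjustment lay 50 to 200 kb from a RefSeq start and was not the 1 lost at the deposited FDR. Some of the 22 gained were likewise not among the 61. Peaks were detected in every library for 137 members (8.21%, against 17.3% of all), in no control and all KO-labelled libraries for 13 (0.779% against 1.69%), and the reverse for 1 (0.06% against 0.0229%). Relative to the median fold of all listed peaks, which was 0.61 above 0, and with p-values recomputed from the implied SE, 0 members were gained and 9 were lost, where over all listed peaks 0.0153% were gained and 0.381% lost.

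**Figure D1:**
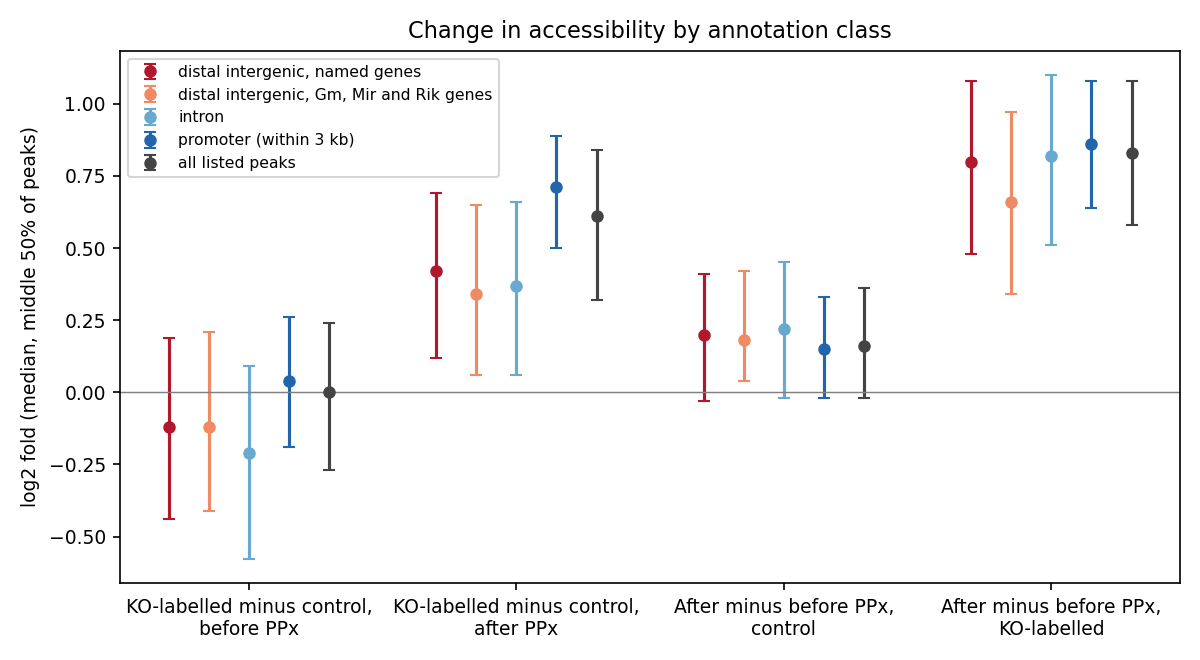
Median log2 fold (points) and the middle 50% of peaks (bars) for 4 annotation classes and for all listed peaks in each of the 4 comparisons. After PPx, distal intergenic peaks of named genes had a median of 0.42, under the 0.71 of promoter peaks, and in KO-labelled islets after against before PPx the 2 medians were 0.80 and 0.86.

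**Figure D2:**
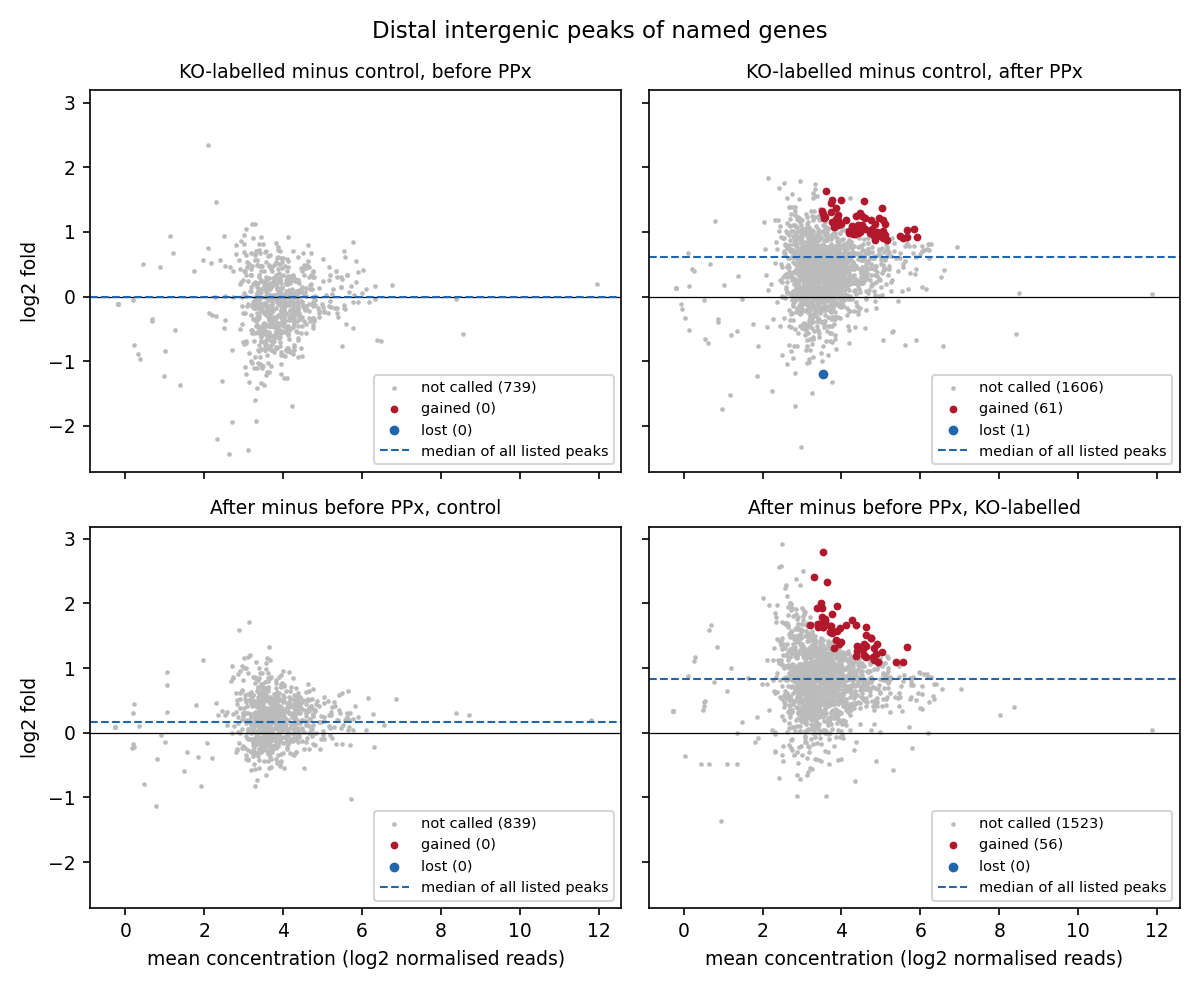
Log2 fold against mean concentration (log2 normalised reads) of each distal intergenic peak of a named gene, 1 panel per comparison, with members called at the authors' FDR of 0.05 in colour. The 61 and 56 gained members lie at the upper edge of clouds that are shifted above 0 as a whole, beside the dashed median of all listed peaks at 0.61 and 0.83.

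Members gained with the smallest FDR included peaks filed under Btg2, Gch1, Eif2ak3 and Sst. The peak of Btg2, an antiproliferative gene (chr1:134092778-134093378), had means of 4.23 in controls and 5.45 in KO-labelled islets in the authors' deposited table, a difference of 1.21 in log2 (FDR 0.0214, implied SE 0.32), and a peak was detected in 2 of 4 and 4 of 4 libraries. Gch1 encodes the first enzyme of tetrahydrobiopterin synthesis. Its peak (chr14:47136533-47137133) was at 3.65 and 5.13 in the authors' deposited table, 1.48 on the log2 scale (FDR 0.0214, implied SE 0.40), and a peak was detected in 0 control and 3 KO-labelled libraries of 4 each. Eif2ak3 encodes PERK, a sensor kinase of the unfolded protein response. Its peak (chr6:70824360-70824960) was at 3.70 and 4.98 in the authors' deposited table, a difference of 1.29 in log2 (FDR 0.0265, implied SE 0.36). Sst encodes somatostatin, the hormone of delta cells. A peak 47919 bp from its start (chr16:23842625-23843225) was at 4.20 and 5.32 in the authors' deposited table, 1.12 on the log2 scale (FDR 0.0294, implied SE 0.34), and a peak was detected in 3 and 4 of 4 libraries. Delta cells do not use the insulin promoter, and whether the number of delta cells differed between the groups was not tested.

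Further peaks with the smallest FDR were filed under Csnk1a1 (casein kinase 1 alpha, log2 fold 1.64), Vnn1 (a pantetheinase, 1.49), Gnl3l (a nucleolar GTPase, 1.49), Zfp944 (a zinc finger gene, 1.37), Etf1 (a translation release factor, 1.31), Repin1 (1.24), Ccn6 (1.22) and Elavl4 (a neuronal-type RNA-binding protein, 1.18) in the authors' deposited table. The Csnk1a1 and Etf1 peaks lay on chromosome 18, where the table of starts has no entry. They were called in 0 of 4 controls and in 3 and 4 of 4 KO-labelled libraries. Neither region was listed in the genotype comparison before PPx or in the PPx comparison of controls. Both were thus listed through KO-labelled libraries alone, so the lack of control calls is not a separate result. The Zfp944 peak lay 67 bp from the RefSeq start of Gm7072 and 46491 bp from that of Zfp944, and a peak was detected in all 8 libraries. The Repin1 peak lay 74 bp from the start of Zfp775, whose window is printed above. Taken relative to the shift of all peaks, the folds of Btg2, Gch1, Eif2ak3 and Sst were 0.60, 0.87, 0.68 and 0.51.

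The member lost at the deposited FDR was filed under Ndufb3, which encodes part of complex I of the respiratory chain (chr1:58613678-58614278), 27581 bp from its start. In the authors' deposited table it had means of 3.99 and 2.80, a difference of -1.19 in log2 (FDR 0.0469, implied SE 0.43), and a peak was detected in 4 control and 0 KO-labelled libraries of 4 each. Relative to the shift of all peaks it was at -1.80. The other 8 members called lost after centring were peaks of P4ha2, Kcnh5, Zfr, Ly6c2, Agpat4, Vmn1r-ps151, Lrrc7 and Zfy1, named because they are few and after their values were seen. Of these, P4ha2, a prolyl hydroxylase gene, was at 5.94 and 5.19 (log2 fold -0.75) and Ly6c2, a Ly6 surface antigen gene, at 8.69 and 8.11 (log2 fold -0.58) in the authors' deposited table. Both were called in all 8 libraries.

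**Figure D3:**
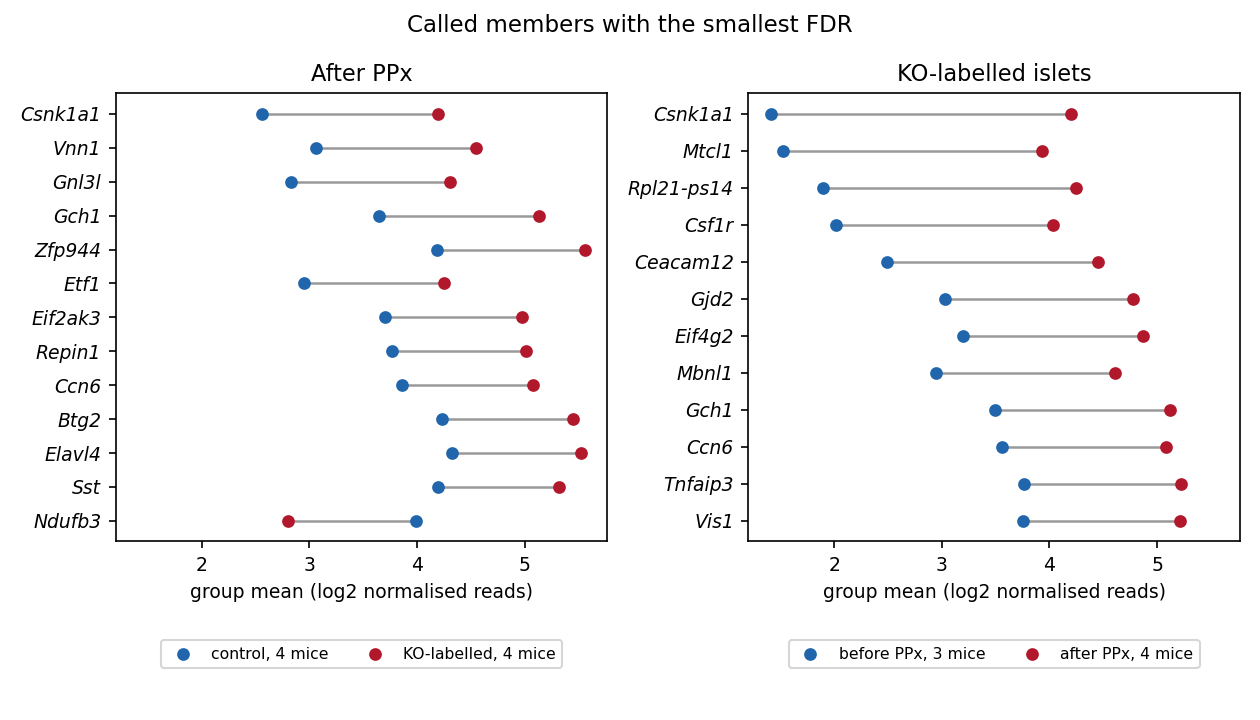
Group means (log2 normalised reads) of the called members with the smallest FDR, with a line joining the 2 groups of a comparison. On the left, 12 members are higher in KO-labelled than in control islets after PPx and Ndufb3 is lower; on the right, 12 members are higher after than before PPx in KO-labelled islets.

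In control islets, no member passed the threshold after against before PPx. Of the 839, 0 were gained and 0 lost at a deposited FDR of 0.05 (over all listed peaks 0.0% gained and 0.0% lost), and the adjustment over all listed peaks also called 0. At an unadjusted p under 0.05, 32 members were higher and 0 lower after PPx (over all listed peaks 2.43% and 0.0991%). Peaks were detected in every library for 117 members (13.9%, against 22.8% of all), with 0 in no library before and all after PPx (over all peaks 0.0124%) and 0 the reverse (0.0496%). The median log2 fold, after minus before, was 0.20 (middle 50% from -0.03 to 0.41), against 0.16 for all peaks, 0.15 for promoter peaks and 0.22 for intron peaks. Among members at or above the median concentration, Abcb5, an ABC transporter gene, was among the highest: its peak was at 3.78 and 4.62 in the authors' deposited table, 0.84 on the log2 scale (FDR 0.999, implied SE 0.35), and a peak was detected in 2 of 4 and 4 of 4 libraries. At the other end stood Mbnl1, which encodes a splicing regulator, with means of 4.27 and 3.73 in the authors' deposited table and a difference of -0.54 in log2 (FDR 0.999, implied SE 0.36).

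In KO-labelled islets, the deposited concentrations of members were on average higher after PPx than before, a direction that also rests on the scaling, since the centred median was -0.03. As deposited, the median log2 fold was 0.80 (middle 50% from 0.48 to 1.08), with 95.1% of members above 0, against 0.83 and 97.1% for all listed peaks, 0.86 for promoter peaks and 0.82 for intron peaks. By the authors' FDR, 56 of 1579 members were gained (3.55%) and 0 were lost, where over all listed peaks 7.45% were gained and 0.0% lost. At an unadjusted p under 0.05, 464 members were higher and 0 lower (over all listed peaks 39.4% and 0.0235%), and the adjustment over all listed peaks called 41 gained and 0 lost (over all listed peaks 4.49% gained). Peaks were detected in every library for 174 members (11%, against 25.2% of all), in no library before and all after PPx for 22 (1.39% against 1.96%), and the reverse for 0 (over all peaks 0.0235%). Relative to the median of all listed peaks, 0.83 above 0, 0 members were gained and 0 lost (over all listed peaks 0.0% and 0.0%). An FDR of exactly 1, given up to a concentration of 3.19, stood beside 540 members (34.2%, against 20.9% of all peaks). This comparison shares its KO-labelled libraries after PPx with the genotype comparison after PPx, so neither supports the other.

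Members with the smallest FDR here included rises from low means, as deposited. Relative to the shift of all peaks, the log2 folds of Gjd2, Tnfaip3, Mbnl1 and Csnk1a1 were 0.92, 0.64, 0.83 and 1.96, and none was called. Gjd2 encodes connexin 36, which joins beta cells by gap junctions. Its peak (chr2:113996747-113997347) went from 3.03 to 4.78 with PPx in the authors' deposited table, 1.75 on the log2 scale (FDR 0.0231, implied SE 0.45), and a peak was detected in 0 of 3 and 3 of 4 libraries. Tnfaip3 encodes A20, an inhibitor of NF-kB signalling. A peak 46904 bp from its start (chr10:19062014-19062614) was at 3.76 and 5.22 in the authors' deposited table, a difference of 1.47 in log2 (FDR 0.0247, implied SE 0.38), and a peak was detected in 3 of 3 and 4 of 4 libraries. This peak lay 465 bp from the RefSeq start of Gm51814. The Mbnl1 peak (chr3:60462044-60462644) was at 2.95 and 4.61 in the authors' deposited table, 1.66 on the log2 scale (FDR 0.0299, implied SE 0.47). The largest fold with a call was at Csnk1a1, from 1.41 to 4.20 in the authors' deposited table, a difference of 2.79 in log2 (FDR 0.0077, implied SE 0.60). This Csnk1a1 peak was detected in 0 of 3 libraries before PPx and 3 of 4 after it. The region was listed only in comparisons that hold the KO-labelled libraries after PPx. Other peaks of the group were filed under Mtcl1 (a microtubule-binding protein, 2.41), Rpl21-ps14 (a ribosomal protein pseudogene, 2.34), Ceacam12 (1.96), Eif4g2 (a translation initiation factor, 1.67), Gch1 (1.63), Ccn6 (1.52) and Vis1 (1.47), as log2 folds of the authors' deposited table.

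Csf1r, which encodes the receptor of macrophage growth factor, was also gained in KO-labelled islets after PPx. Its peak on chromosome 18 was at 2.02 and 4.03 in the authors' deposited table, 2.01 on the log2 scale (FDR 0.0282, implied SE 0.56), and a peak was detected in 0 of 3 and 2 of 4 libraries. The Csf1r region was not listed in the genotype comparison before PPx or in the PPx comparison of controls. It was 1 of 6 listed peaks of 33 endothelial, stromal and immune marker genes, whose median log2 fold was 0.55, against 0.83 over all peaks. Their summed level went from 52.1 to 88.0 normalised reads, and the other 5 peaks (Cdh5, 2 of Col1a2, Dcn and Plvap) were not called. For 2 of these 5 an FDR of exactly 1 barred a call. Of acinar and ductal markers only Krt18, a keratin, had a member: it was at 2.83 and 4.12 in the authors' deposited table, a log2 fold of 1.29 at an FDR of 0.0641. No member was listed for the leukocyte markers Ptprc and Cd68, for the endothelial marker Pecam1 or for the acinar markers Prss1, Cela1 and Cpa1. After PPx, the same endothelial, stromal and immune list had 9 peaks with a median of 0.41 between genotypes and a summed level of 90.7 in controls and 117 in KO-labelled islets, with 0 called. Of these 9, 5 had an FDR of exactly 1 and could not be called. The part of other cell types in the results was not tested.

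Members of beta cell genes were few, and the counts of calls below are too small to set a list apart from the 9.89% (after PPx) and 7.45% (PPx in KO-labelled islets) gained over all listed peaks, or the 3.66% and 3.55% over all members. Of 44 beta cell transcription factor genes, 7 had 10 members after PPx: 1 was gained, 0 lost, and the median log2 fold between genotypes was 0.70, against 0.61 over all peaks. Of these 10 members, 8 had an FDR of exactly 1 and could not be called. The called one belonged to Myt1l, a zinc finger factor of neurons and endocrine cells, and was at 4.66 and 5.53 in the authors' deposited table, a difference of 0.88 in log2 (FDR 0.0447, implied SE 0.31). A peak of Nkx6-1, a beta cell homeobox gene, was at 2.33 and 3.85, with a log2 fold of 1.52 and an unadjusted p of 0.00338 beside an FDR of 1 in the authors' deposited table. In KO-labelled islets after against before PPx the list had 12 peaks, 0 called, with a median of 0.87 against 0.83, and its lowest unadjusted p was 0.00781, at St18. There, 3 of the 12 could not be called for the same reason. For 46 genes of insulin production and secretion there were 17 peaks after PPx and 14 in the PPx comparison of KO-labelled islets, 0 called in each, with medians of 0.49 and 1.00. An FDR of exactly 1 barred a call for 10 of the 17 and 4 of the 14. Among the genes of this list Pcsk1, the prohormone convertase gene, had the strongest peak, with log2 folds of 0.42 (FDR 0.261) and 0.93 (FDR 0.0793) in the authors' deposited tables.

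Among signalling genes, calls were 1 at Dusp4 and 1 in each table at Eif2ak3, beside the 9.89% and 7.45% gained over all listed peaks. In the list of EGF and neuregulin ligands, ERBB receptors and MAPK feedback genes, 4 of 34 genes had members: Dusp4, Dusp6, Etv1 and Spred2, feedback or target genes of MAPK signalling, with none at a ligand or receptor. After PPx 0 of its 6 peaks were called between genotypes, with a median of 0.71, and in the PPx comparison of KO-labelled islets 1 of 6 was gained, with a median of 0.69. That 1 was a Dusp4 peak that went from 3.65 to 4.95 with PPx in the authors' deposited table, 1.29 on the log2 scale (FDR 0.0365, implied SE 0.40). AP-1 and immediate early genes had 9 peaks in both tables, 0 called, with medians of 0.52 and 0.90. The 3 Fos peaks after PPx had log2 folds of 0.76, 0.56 and 0.63 between genotypes in the authors' deposited table, while the peaks of Myc had -0.57 and -0.62. Of 22 unfolded protein response genes, Eif2ak3, Pdia6 and Edem1 had 1 peak each in both tables, and Eif2ak3 alone was called. Cell cycle genes had 6 and 5 peaks, 0 called, with medians of 0.48 and 0.73, and Arid1b, the paralogue of Arid1a, had a peak with log2 folds of 0.35 and 0.32 in the authors' deposited tables. TGF-beta and BMP genes had 5 and 3 peaks, 0 called, with medians of 0.18 and 0.58. In the same order of comparisons, an FDR of exactly 1 barred a call for 1 and 1 peaks of the MAPK list. The counts were 3 and 2 for AP-1 genes and 2 and 2 for the unfolded protein response. They were 3 and 1 for cell cycle genes and 3 and 0 for TGF-beta and BMP genes.

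Genes of neuronal-type adhesion and guidance had the most members of any list, and with 77 genes this list was also the longest of the 14. After PPx, 21 of 77 genes had 31 peaks, of which 2 were gained and 0 lost, where 9.89% of all listed peaks and 3.66% of members were gained, with a median log2 fold of 0.43 between genotypes against 0.61 over all peaks. Of the 31, 16 had an FDR of exactly 1 and could not be called. The gained ones were a peak of the protocadherin gene Pcdh10 (3.14 and 4.41 in the authors' deposited table, log2 fold 1.26, FDR 0.0392) and one of the contactin gene Cntn3 (4.95 and 5.88, log2 fold 0.94, FDR 0.0464). In the PPx comparison of KO-labelled islets 0 of 30 were called, with a median of 0.56 against 0.83. Ion channel genes had 15 and 14 peaks, 0 called, with medians of 0.09 and 0.63. For the same reason no call was possible for 10 of the 30 adhesion peaks and for 9 of the 15 and 6 of the 14 channel peaks. Before PPx, the adhesion list held one of the lowest folds of any member, a Cntnap5b peak at 3.71 in controls and 1.33 in KO-labelled islets, with a log2 fold of -2.38 and an FDR of 1 in the authors' deposited table. Before PPx and in controls after PPx, 0 peaks of any of the 14 lists were called, as was true of all members.

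Set side by side, the called regions differed in how they stood in the other comparisons. The 62 regions called between genotypes after PPx were listed before PPx in 50 cases, from other mice. Their median log2 fold there was 0.04 (range -0.60 to 0.72, 27 of 50 above 0, against 37.3% of all members). Eif2ak3, Gch1 and Repin1 had -0.26, -0.60 and -0.45 there, and Sst and Pcdh10 had 0.68 and 0.72, in the authors' deposited tables. After against before PPx in controls, 46 of the 62 were listed, with a median of 0.02 (23 of 46 above 0, against 72.5% of all members). The control libraries after PPx are shared with these 62 calls, so low values in them enter both, and their part was not tested. The 56 regions gained in KO-labelled islets after PPx were listed in controls in 40 cases, also from other mice, with a median of 0.24 after against before PPx (31 of 40 above 0, against 72.5% of all members). Gjd2 had 0.71, Vis1 0.49 and Mbnl1 -0.54 there in the authors' deposited tables. Between genotypes before PPx, 36 of the 56 were listed, with a median of -0.375 (3 of 36 above 0, against 37.3% of all members). Mbnl1 was at 4.43 in controls and 3.17 in KO-labelled islets there, a log2 fold of -1.26 in the authors' deposited table, with a peak detected in 4 of 4 and 1 of 3 libraries. That comparison shares the KO-labelled libraries before PPx with the calls, so low values there enter both. Their part in the calls was not tested. Whether an effect differed between states or genotypes was not tested, because the tables were scaled separately.

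**Figure D4:**
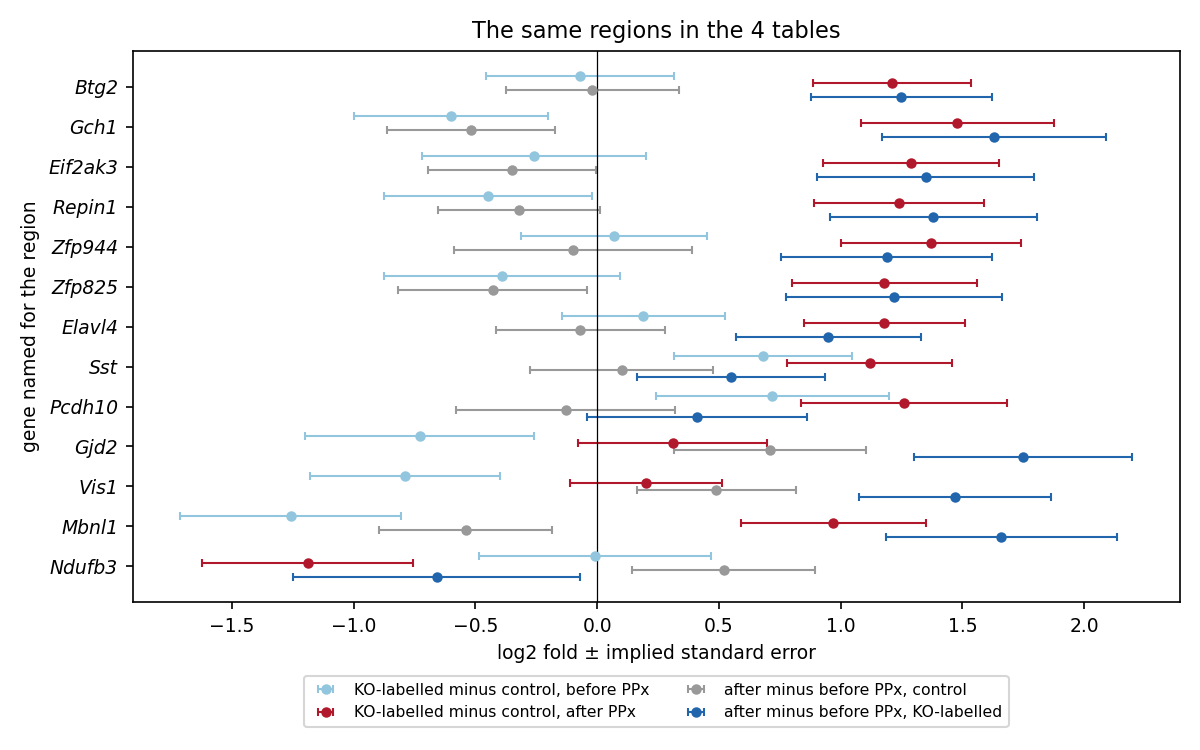
Log2 fold with its implied standard error for 13 called regions in each of the 4 tables, named by the deposited gene. Red and dark blue points share the KO-labelled libraries after PPx. Red also shares the control libraries after PPx with grey, dark blue the KO-labelled libraries before PPx with light blue, and light blue the control libraries before PPx with grey. The 4 folds of a region are therefore not independent. Btg2 is at 1.21 and 1.25 in red and dark blue and at -0.07 and -0.02 in the other 2. Gjd2 is at 0.31 in the genotype comparison after PPx and at 1.75 in KO-labelled islets after against before PPx.

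Members near a start had higher folds between genotypes and were gained more often than those farther away, a difference that was not tested. After PPx, the 135 members within 1 kb of a RefSeq start had a median log2 fold of 0.60 between genotypes, and 17 were gained (12.6%). Over all listed peaks the values were 0.61 and 9.89%, and over promoter peaks 0.71 and 14.3%. The 258 members at 1 to 10 kb had a median of 0.48 with 14 gained (5.43%), and the 674 at 10 to 50 kb had 0.41 with 13 gained (1.93%). The 387 at 50 to 200 kb had 0.34 with 14 gained (3.62%), and the 159 beyond 200 kb had 0.38 with 1 gained (0.629%). The fall with distance was therefore not steady. Concentration was also highest within 1 kb, with medians of 3.91, 3.525, 3.46, 3.45 and 3.41 from near to far, and its part in the difference was not tested. In KO-labelled islets after against before PPx, medians differed less, at 0.82 within 1 kb, 0.84 at 10 to 50 kb and 0.69 beyond 200 kb, while the shares gained were 8.89%, 2.94% and 1.37%. Peaks filed under zinc finger genes (names starting with Zfp, Zscan or Zkscan, a group chosen after its values were seen) made up 22 of the 135 near members after PPx, and 5 of these were gained, against 12 of the other 113 (10.6%). Over all distances, 8 of 57 such peaks were gained after PPx (14%, against 9.89% of all listed peaks), with a median of 0.67. In the PPx comparison of KO-labelled islets 2 of 57 were gained (3.51%, against 7.45%), with a median of 0.83. The Zfp825 peak, 54 bp from its start, was at 3.41 and 4.59 after PPx for the 2 genotypes in the authors' deposited table, a difference of 1.18 in log2 (FDR 0.0348, implied SE 0.38), and the Hdac4 peak, at a histone deacetylase gene, was at 5.03 and 5.94, 0.91 on the log2 scale (FDR 0.0471, implied SE 0.33).

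**Figure D5:**
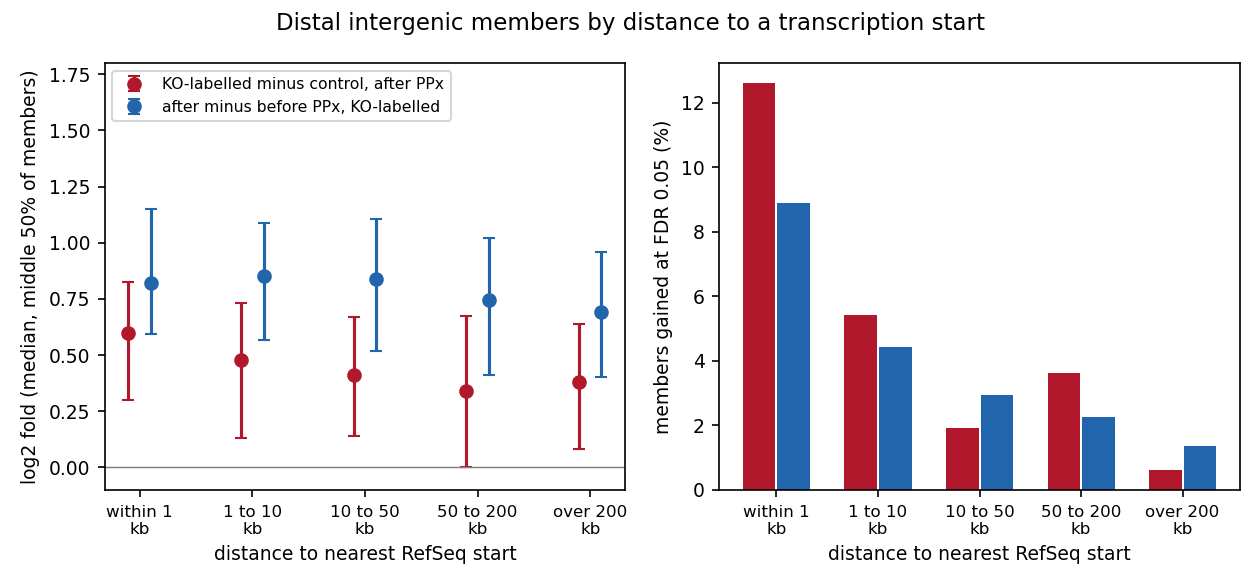
Distal intergenic members grouped by the distance of the peak centre to the nearest RefSeq start: median log2 fold with the middle 50% of members on the left, and the share gained at the authors' FDR of 0.05 on the right. In the genotype comparison after PPx the share gained was 12.6% within 1 kb and 1.93% at 10 to 50 kb.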

How the data were processed

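ATAC-seq reads from islets of 15 mice passed through ChIPseeker, DiffBind, MACS, BWA and cutadapt (listed in no order) with mm10 as the build, per the submitters' processing notes; the sources used here do not give versions, settings or the scaling of libraries. Each of the 4 tables that the authors deposited came with log2 concentrations per group (means of normalised reads), their log2 fold, a p-value and an FDR from a test that the file headers do not name, and, as deposited counts, how many libraries of each group had the peak called. Repeated rows were dropped (1197, 5281, 1337 and 4588, in the order before PPx, after PPx, controls, KO-labelled) and the sign of each fold was set so that a positive value means higher in KO-labelled islets, or higher after PPx. A peak was gained or lost at a deposited FDR of 0.05 or below. No test was computed from libraries, because the tables hold group means, so no replicate could be left out.

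The implied SE used the median of 1 of 40 bins of concentration for folds under 0.1 or a p of 0.95 and above. Centred values are folds minus the median of the table, with p-values from the implied SE under a normal distribution. Centring and adjustment were tested on simulated folds drawn from a normal distribution with the same implied SEs. Whether the implied SE holds for these data was not tested. Peaks of different tables were joined at an overlap of 1 bp. Starts, 250-base windows and gene bodies came from RefSeq GRCm38.p6. The text names, per comparison, up to 12 called members per direction by FDR, the 5 highest by concentration, the 5 highest and lowest folds at or above the median concentration, up to 4 per gene list, the genes with most members and the 6 highest regions in all tables. Zfp825, Hdac4, Isl1, Cntnap5b and other members outside this rule were picked after their values were seen. The members and the 14 lists were chosen with earlier results of these data known. Python 3.11.15, pandas 2.3.3 and scipy 1.17.1 were used.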

Additional observations from a re-analysis of the deposited data

How the results depend on the processing

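Counts of called members depended on the threshold and the scaling. After PPx, the gained members numbered 61, and 0 at an FDR of 0.01, 154 at 0.1, 22 with the p-values adjusted over all listed peaks, 0 after centring on the median of the table, 96 with Gm, Mir and Rik genes kept, 28 at 10 kb or more from a start and 15 at 50 kb or more. The 1 lost member became 0 at an FDR of 0.01, at 50 kb or more and at or above the median concentration, 5 at 0.1, 9 after centring and 9 with Gm, Mir and Rik genes kept. The median log2 fold of members after PPx, 0.42, became -0.19 after centring. In KO-labelled islets after against before PPx, the 56 gained became 1 at 0.01, 307 at 0.1, 0 after centring, 91 with Gm, Mir and Rik genes kept, 29 and 10 at 10 and 50 kb or more, and 34 at or above the median concentration, and the median of 0.80 became -0.03 after centring. Without members within 1 kb of a start, an alternative chosen after seeing the data, 44 and 44 members stayed gained. Centring also moved the median in controls from 0.20 to 0.04. Counts under the settings not named here stayed within 1.5 times. Beside centring, the medians ran from -0.14 to -0.09, 0.36 to 0.48, 0.19 to 0.23 and 0.72 to 0.83.

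No paired analysis was possible because the tables hold group means and the labels give each mouse a number of its own. Replicates could not be left out for the same reason, and the motif search in the centre of each peak was not run, since no genome was given. In the tables with calls, 49.8% and 34.2% of members had an FDR of exactly 1, and the part of concentration in the counts was not tested.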

Other observations

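Some members were called as peaks in every library of a table although their concentration was under 2. There were 5, 6, 8 and 5 such members in the tables before PPx, after PPx, of controls and of KO-labelled islets, out of 130, 137, 117 and 174 called in every library, whose median concentration was 4.77, 5.06, 4.77 and 4.91. Csmd3, Zfp97, Zfp608, Cntnap2 and Mrgprd were among them in all 4 tables. After PPx, Zfp97 was at -0.26 in controls and -0.13 in KO-labelled islets in the authors' deposited table, under 1 normalised read, with calls in 8 of 8 libraries.

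Members on the sex chromosomes were few, and their difference from other members was not tested. The 36 members on X had a median log2 fold of 0.73 between genotypes after PPx, and the 5 on Y had -0.53, against 0.42 for all members. Over all listed peaks the medians were 0.72 on X and 0.13 on Y. Most members on Y were filed under Zfy1, whose 4 peaks after PPx had log2 folds from -0.67 to -0.19. Before PPx, the 6 members on Y were at -0.53 and the 19 on X at -0.01. All mice were male.

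The share of listed peaks that were members ranged after PPx from 4.33% on chromosome 11 to 18.7% on chromosome 15.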
